A study of Homo sapiens with 9 samples.

Results

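SELPLG encodes PSGL-1, the mucin by which leukocytes roll on selectins, and it was followed here with 8 other genes of leukocyte homing: CD44, FUT4, FUT7, ST3GAL4, GCNT1, SPN, PECAM1 and ICAM1. These 9 genes, of 60623 in the files, were taken by name from RNA-seq of U937 cells, a human monocytic cell line. The set was chosen by the known FPKM fall of SELPLG in AML1-ETO cells, so its changes are described without a test. The 3 U937 lines carried the inducible AML1-ETO construct (clone #4), the inducible ETO2-GLIS2 construct (clone #14) or the empty vector. Each line was sequenced at 0, 12 and 48 h of 5 μg/ml doxycycline, which switches on the HA-tagged fusion protein. The empty vector line took the same drug, so its change is the measure of doxycycline and of time in culture without a fusion protein. Each fusion line is a single retrovirally transduced clone, so an effect of the fusion protein and one of the clone cannot be told apart.

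Selectins on endothelium, platelets and leukocytes bind glycans that must be built on a protein core. PSGL-1 becomes a ligand when branched O-glycans on it are sialylated and then fucosylated in alpha-1,3 linkage, which gives the sialyl Lewis x group. CD44, better known as the hyaluronan receptor, and CD43, the product of SPN, can carry the same glycans, while PECAM-1 and ICAM-1 are immunoglobulin-family molecules of firm adhesion and transmigration.

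Levels are FPKM, reads normalised to a gene's exon length and to all reads on genes, with 1 library per condition. No replicate check was therefore possible and no p-value was computed. A gene was past 2-fold when log2 of FPKM + 0.01 differed by more than that fold and the mean FPKM of both libraries was at least 1. "Rose" and "fell" are used only of genes past it. Intervals are exact 95% Clopper-Pearson intervals from reads recovered from the FPKM, and hold counting error alone. The libraries held 15136400 to 18443642 reads on genes. RUNX1T1, which encodes ETO, had 0.512, 22.2 and 28.7 FPKM over the AML1-ETO time course and at most 0.0240 FPKM in the other lines. In ETO2-GLIS2 cells, GLIS2 had 2.39, 6.79 and 8.85 FPKM and CBFA2T3, which encodes ETO2, 4.10, 11.4 and 12.6 FPKM. RUNX1 stayed between 16.8 and 17.8 FPKM in the AML1-ETO line. Of 16 monocytic marker genes, 12 had at least 1 FPKM in all 9 libraries, while CD14 reached at most 0.0802 FPKM and MPO at most 0.780 FPKM. Their summed level was lowest, at 437 FPKM, in AML1-ETO cells at 48 h and highest, at 2854 FPKM, in ETO2-GLIS2 cells at 12 h. LYZ alone held 45.1 and 1517 FPKM of these sums. At 0 h LYZ already had 519, 970 and 1283 FPKM in the empty vector, AML1-ETO and ETO2-GLIS2 lines. The T cell genes CD3D, CD3E and CD3G, the B cell gene MS4A1, the erythroid gene HBB and the endothelial genes CDH5 and KDR were listed at 0 in all 9 libraries. NKG7, a gene of cytotoxic cells, was nevertheless present at 9.42 to 89.9 FPKM, and PAX5, a B cell transcription factor, reached 3.90 FPKM.

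SELPLG fell to the edge of detection in AML1-ETO cells and fell less far in ETO2-GLIS2 cells. SELPLG (ENSG00000110876) lies on chromosome 12 of GRCh38.p14 from 108621895 to 108633894. Empty vector cells held 29.8, 33.0 and 31.8 FPKM of it at 0, 12 and 48 h, from 1208, 1246 and 1219 reads. In the AML1-ETO line it had 25.2, 6.81 and 0.0527 FPKM, from 1041, 262 and 2 reads. In the ETO2-GLIS2 line it had 24.1, 15.1 and 8.14 FPKM, from 1108, 672 and 332 reads. The 3 libraries before doxycycline and the induced empty vector libraries were all at or above 24.1 FPKM, and the 4 induced fusion libraries were all below them. At 48 h in the AML1-ETO line SELPLG was 478-fold lower than at 0 h, with a counting interval of 132-fold to 3950-fold that is wide because 2 reads remained. On the log2 scale this fall was -8.65 (-11.95 to -7.04), and with a pseudocount of 1 FPKM in place of 0.01 it was -4.64. In the ETO2-GLIS2 line the fall at 48 h was 2.96-fold (2.62 to 3.36), a log2 fold change of -1.56 (-1.75 to -1.39).

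Both time courses had begun by 12 h, but at different sizes. In AML1-ETO cells the log2 fold change of SELPLG was -1.89 (-2.09 to -1.69) at 12 h, a fall of 3.70-fold. From 12 h to 48 h it changed by a further -6.76 on the log2 scale. In ETO2-GLIS2 cells the log2 fold change was -0.68 (-0.82 to -0.54) at 12 h, short of 2-fold, and a further -0.89 (-1.08 to -0.70) from 12 h to 48 h. The empty vector line had a log2 fold change of 0.15 at 12 h and 0.09 (-0.02 to 0.21) at 48 h. Less that change, SELPLG differed by -1.66 (-1.87 to -1.44) in ETO2-GLIS2 cells and by -8.74 (-11.79 to -6.88) in AML1-ETO cells at 48 h. Among the 12030 genes tested in the AML1-ETO line at 48 h, 6 fell further than SELPLG, and among 11696 in the ETO2-GLIS2 line 146 did. SELPLG was chosen by its known fall in AML1-ETO cells, so nothing is read from its place there. That place also rests on 2 reads and on the pseudocount.

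FUT7 and FUT4 encode the alpha-1,3-fucosyltransferases that add the fucose of sialyl Lewis x, FUT7 acting on sialylated chains. FUT7 (ENSG00000180549) lies on chromosome 9 from 137030174 to 137032088 and was the lower of both enzymes throughout. Empty vector cells held 3.19, 2.71 and 2.69 FPKM. In the AML1-ETO line it had 4.27 and 0.903 FPKM and was then listed at 0, from 183, 36 and 0 reads. In the ETO2-GLIS2 line it had 4.22, 3.22 and 2.41 FPKM, from 201, 149 and 102 reads. FUT7 thus followed SELPLG out of detection in the AML1-ETO line, where it had 0 reads at 48 h. Set at the floor of 3 reads, FUT7 would be 56.0-fold lower than at 0 h, while its counting interval begins at a 45.1-fold fall. At 12 h in that line its log2 fold change was -2.23 (-2.80 to -1.72). In ETO2-GLIS2 cells at 48 h it was -0.80 (-1.16 to -0.45), which is not past 2-fold, and -0.56 (-1.08 to -0.04) less the change of the empty vector line. Exons of ENSG00000279073 on the same strand cover 34.2% of the FUT7 exon bases in the GENCODE annotation, so FUT7 values are uncertain where the counting could not assign shared reads.

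FUT4 (ENSG00000196371), on chromosome 11 from 94543921 to 94549895, was slower. Empty vector cells held 25.2, 23.3 and 20.0 FPKM. In the AML1-ETO line it had 28.7, 21.8 and 6.88 FPKM, and in the ETO2-GLIS2 line 20.9, 22.9 and 11.4 FPKM. All 3 lines had 20.9 FPKM or more up to 12 h, and both fusion lines were below the empty vector line at 48 h. FUT4 fell in AML1-ETO cells by 48 h, with a log2 fold change of -2.06 (-2.19 to -1.94), of which -1.66 came after 12 h. In ETO2-GLIS2 cells the log2 fold change at 48 h was -0.87 (-0.98 to -0.77), and it was -1.01 after rescaling by the median ratio, just past 2-fold. Less the change of the empty vector line the values were -1.73 (-1.88 to -1.57) and -0.54 (-0.68 to -0.40). Exons of PIWIL4 on the same strand cover 10.1% and those of PIWIL4-AS1 on the other strand 10.9% of the FUT4 exon bases, and the library kit does not mark strand.

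Together FUT4 and FUT7 made up 99.5% or more of the summed FPKM of FUT3, FUT4, FUT5, FUT6, FUT7 and FUT9 in every library. FUT10 and FUT11 were not part of this sum. The share of FUT7 in the sum of FUT4 and FUT7 was 11.2%, 10.4% and 11.8% at 0, 12 and 48 h in the empty vector line. It was 13.0%, 3.98% and 0% in the AML1-ETO line and 16.8%, 12.3% and 17.4% in the ETO2-GLIS2 line. The balance between the enzymes shifted towards FUT4 in AML1-ETO cells, while in ETO2-GLIS2 cells FUT7 and FUT4 had moved by similar amounts from 0 h to 48 h. Set against the empty vector line at 48 h, ETO2-GLIS2 cells had a log2 difference of -0.16 (-0.56 to 0.25) for FUT7. For FUT4 this difference was -0.81 (-0.92 to -0.70). At 0 h these differences had been 0.40 for FUT7 and -0.27 for FUT4.

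The sequences before the starts of the fucosyltransferase genes are shown because both fell in AML1-ETO cells, with ICAM1, which was higher there, beside them. They are the 250 bases before the RefSeq start on GRCh38.p14, 5′ to 3′ on the gene's strand. FUT7 is chr9:137032089-137032338 on the minus strand, FUT4 is chr11:94543671-94543920 on the plus strand and ICAM1 is chr19:10270870-10271119 on the plus strand. Capitals mark GGAAG, a core of ETS-family sites, searched on both strands.
FUT7: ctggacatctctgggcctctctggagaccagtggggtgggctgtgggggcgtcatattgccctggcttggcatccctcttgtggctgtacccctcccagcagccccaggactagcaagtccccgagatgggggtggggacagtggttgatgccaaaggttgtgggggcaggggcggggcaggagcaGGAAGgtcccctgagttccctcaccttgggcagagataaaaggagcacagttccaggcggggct
FUT4: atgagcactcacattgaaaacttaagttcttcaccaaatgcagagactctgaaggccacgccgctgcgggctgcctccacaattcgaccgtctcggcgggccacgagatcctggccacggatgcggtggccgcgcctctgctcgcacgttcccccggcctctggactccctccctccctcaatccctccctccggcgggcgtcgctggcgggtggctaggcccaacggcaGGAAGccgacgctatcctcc
ICAM1: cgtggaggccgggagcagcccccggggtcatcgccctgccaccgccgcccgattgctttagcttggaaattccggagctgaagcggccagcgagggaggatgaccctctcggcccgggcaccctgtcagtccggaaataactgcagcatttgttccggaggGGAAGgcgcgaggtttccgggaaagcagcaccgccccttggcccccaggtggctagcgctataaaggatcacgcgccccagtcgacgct
Each of the 3 held 1 match of GGAAG, starting 64 bases before the start in FUT7, 20 in FUT4 and 89 in ICAM1. Over the 6 members in the table, 9 of 11 promoters held it, against 65.1% of all 35116 promoters of the same length. The RUNX core was searched in both its forms on both strands. TGTGGT was in 0 of the 11, against 3855 of all 35116 promoters, and TGCGGT was in 1, that of FUT4, starting 129 bases before the start, against 5.84%. The E-box letters CANNTG were in 6 of the 11, against 61.8%, and overlapped no match of the other motifs in the 3 shown. SELPLG, SPN and PECAM1 have no entry.

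ST3GAL4 and GCNT1 act before the fucosyltransferases, and neither passed 2-fold in any line. ST3GAL4 (ENSG00000110080), on chromosome 11 from 126355686 to 126414638, encodes a sialyltransferase that caps galactose. It had 7.76, 9.40 and 8.24 FPKM in the empty vector line, 6.73, 5.46 and 5.28 FPKM in the AML1-ETO line and 7.43, 9.37 and 9.57 FPKM in the ETO2-GLIS2 line. The AML1-ETO libraries were the 3 lowest. By 48 h its log2 fold change reached -0.35 (-0.55 to -0.15) with AML1-ETO and 0.36 (0.21 to 0.52) with ETO2-GLIS2. Less the change of the empty vector line these were -0.43 (-0.70 to -0.17) and 0.28 (0.05 to 0.51). ST3GAL4 held 17.6% to 24.6% of the summed FPKM of the ST3GAL family.

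GCNT1 (ENSG00000187210), on chromosome 9 from 76393869 to 76507416, encodes the enzyme that starts the core 2 branch of O-glycans. It had 7.70, 6.09 and 5.67 FPKM in the empty vector line, 11.9, 10.7 and 10.2 FPKM in the AML1-ETO line and 8.77, 6.96 and 6.36 FPKM in the ETO2-GLIS2 line. All 3 AML1-ETO libraries were above all others, also before doxycycline. At 48 h the log2 fold change came to -0.44 with the empty vector, -0.23 with AML1-ETO and -0.46 with ETO2-GLIS2, so that the fusion lines differed from the empty vector line by 0.22 (0.05 to 0.38) and -0.02 (-0.20 to 0.16). GCNT1 made up at least 99.2% of the summed FPKM of GCNT1, GCNT3 and GCNT4.

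SPN fell in AML1-ETO cells and not in the other lines. SPN (ENSG00000197471), on chromosome 16 from 29662963 to 29670876, encodes CD43, an abundant sialomucin of leukocytes. It had 54.1, 69.0 and 79.8 FPKM in the empty vector line and 46.7, 61.3 and 83.9 FPKM in the ETO2-GLIS2 line, which lay close together. In the AML1-ETO line it had 47.2, 35.2 and 16.4 FPKM. The AML1-ETO line was the lowest at 12 h and at 48 h, although it began within 0.21 log2 units of the others. SPN fell in AML1-ETO cells at 48 h by a log2 fold change of -1.52 (-1.60 to -1.44), or -2.08 (-2.17 to -1.99) less the change of the empty vector line. In ETO2-GLIS2 cells the log2 fold change was 0.84 (0.80 to 0.89), and in the empty vector line 0.56, neither past 2-fold. The difference between ETO2-GLIS2 cells and the empty vector line was 0.28 (0.22 to 0.35).

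SPN was already the higher of both mucin genes before doxycycline, and its ratio to SELPLG grew in all 3 lines, most in AML1-ETO cells. The ratio of SPN to SELPLG in FPKM was 1.82, 2.09 and 2.51 at 0, 12 and 48 h in the empty vector line. It was 1.87, 5.17 and 312 in the AML1-ETO line, where the last value rests on 2 reads of SELPLG. In the ETO2-GLIS2 line it was 1.94, 4.07 and 10.3.

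CD44 (ENSG00000026508), on chromosome 11 from 35139171 to 35232402, did not follow SELPLG. It had 13.2, 15.1 and 13.5 FPKM in the empty vector line, 15.1, 18.4 and 14.3 FPKM in the AML1-ETO line and 15.2, 19.6 and 25.7 FPKM in the ETO2-GLIS2 line. The ETO2-GLIS2 library at 48 h was the highest of the 9. There the log2 fold change was 0.76 (0.69 to 0.83), short of 2-fold, and 0.72 (0.61 to 0.84) less the change of the empty vector line. At 48 h with AML1-ETO it was -0.09 (-0.17 to -0.00). The log2 fold changes of CD44 and SELPLG thus had opposite signs in ETO2-GLIS2 cells at 48 h.

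Of the immunoglobulin-family members, neither passed 2-fold. ICAM1 (ENSG00000090339), on chromosome 19 from 10271120 to 10286615, encodes the ligand of leukocyte beta-2 integrins. It had 9.66, 13.1 and 14.0 FPKM in the empty vector line, 10.8, 13.0 and 20.9 FPKM in the AML1-ETO line and 8.04, 10.6 and 12.5 FPKM in the ETO2-GLIS2 line. The AML1-ETO library at 48 h was the highest of the 9. Its 1.94-fold difference from 0 h, a log2 fold change of 0.96 (0.81 to 1.10), was the value nearest to the threshold from below. Less the change of the empty vector line it was 0.42 (0.20 to 0.63) there and 0.10 (-0.13 to 0.33) in ETO2-GLIS2 cells. Exons of ICAM4-AS1 and LIMASI on the other strand cover 25.4% of the ICAM1 exon bases.

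PECAM1 (ENSG00000261371), on chromosome 17 from 64319415 to 64390860, encodes CD31, which leukocytes use in passing between endothelial cells. It had 13.6, 16.6 and 17.1 FPKM in the empty vector line, 15.8, 14.7 and 18.5 FPKM in the AML1-ETO line and 22.6, 27.9 and 28.2 FPKM in the ETO2-GLIS2 line. The 3 ETO2-GLIS2 libraries were above the other 6, and this was so before induction. Less the change of the empty vector line, the log2 difference at 48 h was -0.01 (-0.12 to 0.11) in ETO2-GLIS2 cells and -0.09 (-0.22 to 0.04) in AML1-ETO cells.

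The clones differed before doxycycline, which sets the scale for reading differences between lines. At 0 h the log2 difference from the empty vector line was largest for PECAM1 in the ETO2-GLIS2 clone, at 0.73 (0.65 to 0.82), and for GCNT1 in the AML1-ETO clone, at 0.63 (0.52 to 0.73). For SELPLG it was -0.24 (-0.36 to -0.12) in the AML1-ETO clone and -0.31 (-0.42 to -0.19) in the ETO2-GLIS2 clone. FUT7 was higher in both, by 0.42 (0.09 to 0.75) and 0.40 (0.08 to 0.73). Over all genes tested, the 10th to 90th percentiles of this difference were -0.34 to 0.46 for the AML1-ETO clone and -0.56 to 0.59 for the ETO2-GLIS2 clone. None of the 9 genes was past 2-fold between uninduced lines, as 4.90% and 6.41% of all genes tested were. Ordered by their mean level over the uninduced lines, SPN came first, with 96.1% to 97.0% of the genes above 0 below it, then SELPLG with 91.4% to 93.6% and FUT4 with 89.7% to 93.2%. PECAM1, CD44, ICAM1, GCNT1, ST3GAL4 and FUT7 followed. The ranges of neighbours overlapped from SELPLG through FUT4 and PECAM1 to CD44 and from ICAM1 through GCNT1 to ST3GAL4, while SPN and FUT7, with 61.4% to 65.8% below it, lay apart.

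At 48 h in AML1-ETO cells 4 of the 9 genes (SELPLG, FUT7, FUT4 and SPN) fell and 0 rose, where over all 12030 genes tested 11.3% fell and 17.3% rose. At 12 h, 2 of the 9 (SELPLG and FUT7) fell and 0 rose, against 2.39% and 6.57% of all genes. In ETO2-GLIS2 cells at 48 h SELPLG alone fell and 0 rose, against 2.54% and 10.8%, and at 12 h 0 of the 9 passed 2-fold in either direction, against 1.46% lower and 3.03% higher. In the empty vector line 0 of the 9 passed 2-fold, against 1.88% lower and 5.64% higher at 12 h and 2.99% lower and 8.00% higher at 48 h. Since SELPLG's fall was known when the genes were chosen, nothing is read from these shares. The 9 genes had median log2 fold changes at 48 h of -0.35 (AML1-ETO), 0.32 (ETO2-GLIS2) and 0.08 (empty vector), beside 0.22, 0.16 and 0.16 over all genes tested. Rescaling by the median ratio lowers the medians of all genes to 0.07, 0.02 and 0.02. Many monocytic genes moved with the AML1-ETO falls: at 48 h, 7 of 12 markers with a mean of at least 1 FPKM fell and 0 rose, with a median log2 fold change of -2.11. LYZ went from 970 to 45.1 FPKM, ITGB2 from 311 to 20.1 FPKM and SPI1 from 92.6 to 11.9 FPKM, while CD33, CD4, CSF3R, FCGR1A and FCGR2A did not pass 2-fold and CSF3R went from 37.7 to 53.7 FPKM. In ETO2-GLIS2 cells 3 of 13 fell (LYZ, ELANE and AZU1) and 3 rose (CD33, ITGAM and FCER1G). At 0 h these 3 risers had 6.16, 2.23 and 51.6 FPKM, and at 48 h 12.4, 11.5 and 217 FPKM. With the empty vector 1 of 13 markers fell (ELANE) and 3 rose (ITGAM, TYROBP and FCER1G). The part of these markers in the falls of the homing genes was not tested. In a bulk library fewer cells with a transcript and less of it per cell cannot be told apart.

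**Figure D1:**
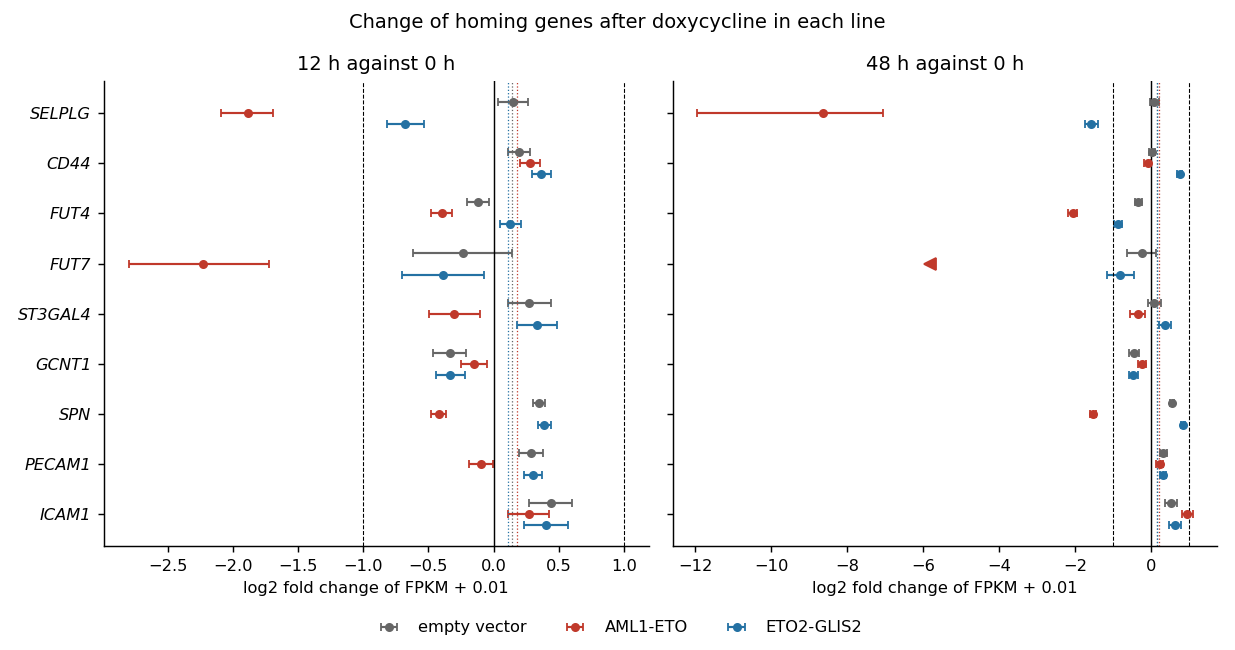
Log2 fold change of FPKM + 0.01 (x axes) for the 9 genes at 12 h (left) and 48 h (right) against 0 h, by line, with 95% counting intervals. Dashed lines mark 2-fold and dotted lines the median of all genes tested in each line. The triangle sets FUT7 at 56.0-fold, from the floor of 3 reads, while its counting interval begins at a 45.1-fold fall. SELPLG and FUT7 lie past 2-fold in AML1-ETO cells at both times, joined by FUT4 and SPN at 48 h, and in ETO2-GLIS2 cells SELPLG alone does, at 48 h.

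Over the 9 libraries, the gene whose pattern was nearest to that of SELPLG among 11820 genes with a mean of at least 1 FPKM was FUT7. Likeness was the root mean square difference of log2(FPKM + 0.01), each gene centred on its own mean, which was 0.577 for FUT7 and would be 2.71 for a flat gene. After it came AL139161.1 at 0.624, RAP1GAP2, a GTPase-activating protein for Rap1, at 0.698, LAT2, a membrane adaptor of immunoreceptors, at 0.712 and MS4A3, a gene of granulocyte and monocyte progenitors, at 0.730, with the 6th gene at 0.757. LAT2 had 35.8, 12.5 and 0.231 FPKM in the AML1-ETO line and MS4A3 80.2, 42.0 and 0.442 FPKM, while AL139161.1 was listed at 0 at 48 h. In the ETO2-GLIS2 line these genes parted: MS4A3 had 61.3, 73.5 and 11.3 FPKM, whereas LAT2 had 40.2, 34.2 and 36.7 FPKM. AL139161.1 also fell there, from 1.61 to 0.661 FPKM at 48 h, while RAP1GAP2 did not pass 2-fold. SPN was at place 507, FUT4 at 531 and ST3GAL4 at 2075 by this measure, and CD44, PECAM1, GCNT1 and ICAM1 were farther from SELPLG than a flat gene would be. This order rests on the AML1-ETO library at 48 h, where SELPLG had 2 reads and FUT7 0, and on the pseudocount. With a pseudocount of 1 FPKM FUT7 was at place 111, and without that library at place 80. Either way 0 of the 5 genes were still among the nearest 5, and CXXC5 and ZFP36L2, named after their values were seen, came first and second. The measure uses the fall of SELPLG by which the set was chosen, and both alternatives were chosen after seeing the data.

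**Figure D2:**
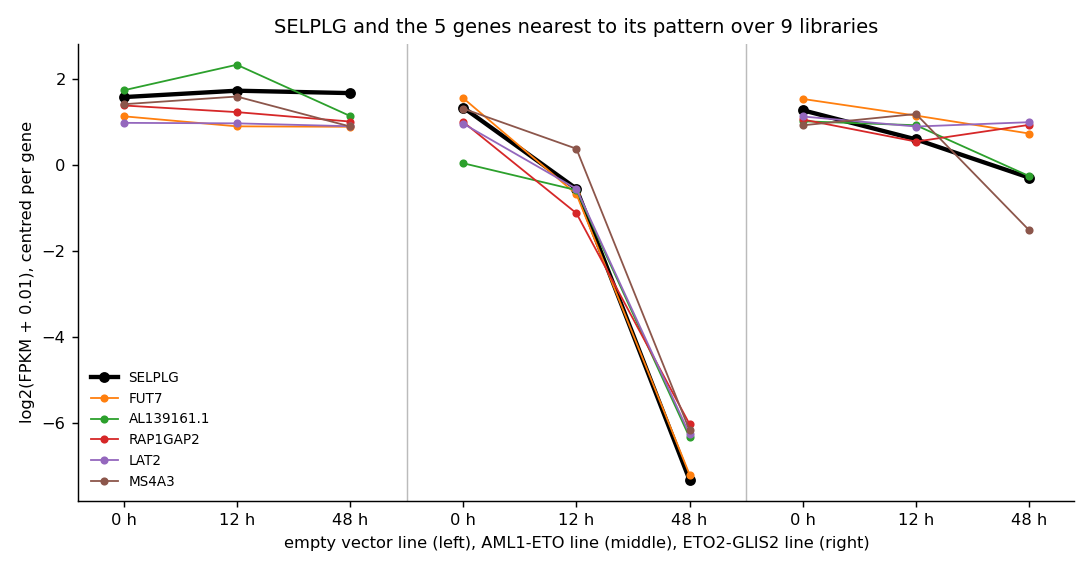
Log2(FPKM + 0.01) of SELPLG and the 5 genes nearest to its pattern, centred on each gene's mean over the 9 libraries (y axis), by library (x axis: 0, 12 and 48 h in the empty vector, AML1-ETO and ETO2-GLIS2 lines). All 6 genes drop at 48 h in the AML1-ETO line. In the ETO2-GLIS2 line SELPLG, MS4A3 and AL139161.1 are past 2-fold lower at 48 h. FUT7, RAP1GAP2 and LAT2 are not, with LAT2 at 36.7 FPKM beside 40.2 FPKM at 0 h.

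Other genes of homing were read from 7 lists with 90 genes: selectins, glycan synthesis, nucleotide sugar and sulfate supply, other sialomucins, immunoglobulin-family molecules, membrane to actin linkers, and the hyaluronan system with sheddases. The lists were chosen with earlier results of these data known, so nothing is read from their shares. In AML1-ETO cells at 48 h, 12 of the 55 with a mean of at least 1 FPKM fell and 5 rose, beside 11.3% and 17.3% of all genes tested, and their median log2 fold change was -0.31, beside 0.22. With ETO2-GLIS2 4 of 58 fell and 3 rose, beside 2.54% and 10.8%, with a median of 0.02. With the empty vector 3 of 56 fell and 4 rose, beside 2.99% and 8.00%, with a median of 0.04. At 12 h, 1 of 57 fell and 2 rose with AML1-ETO, beside 2.39% and 6.57%. At that time 0 of 58 passed 2-fold with ETO2-GLIS2, beside 1.46% lower and 3.03% higher, and 0 of 56 fell and 1 rose with the empty vector, beside 1.88% and 5.64%. Of the selectins, SELE and SELP, those of endothelium and platelets, were listed at 0 in all libraries.

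The list of linkers holds ezrin, radixin and moesin, which tie membrane proteins to actin, with the integrin-binding talin and kindlin-3 (TLN1 and FERMT3), a scaffold, a coronin and a sorting nexin. It had the lowest median of the lists in AML1-ETO cells at 48 h, -1.74, with 5 of 8 lower, where 11.3% of all genes tested were. Ezrin (EZR), TLN1 and FERMT3 did not pass 2-fold there, with -0.14, -0.51 and 0.02. Since this list too was chosen with earlier results known, nothing is read from its share. RDX, which encodes radixin, went from 5.59 to 1.47 FPKM (log2 fold change -1.92) and SLC9A3R1, an ezrin-binding scaffold, from 31.9 to 8.26 FPKM (-1.95). SNX20, whose product binds PSGL-1, had 8.33, 4.05 and 2.38 FPKM and was past 2-fold already at 12 h. CORO1A, which encodes the actin-binding coronin-1A, had 47.3, 55.7 and 10.0 FPKM in AML1-ETO cells, and in the empty vector line it rose from 37.2 to 83.9 FPKM. MSN, which encodes moesin, is named because it completes the count, and went from 170.3 to 53.1 FPKM. None of the 8 passed 2-fold in ETO2-GLIS2 cells, where their median was -0.02. CORO1A had 44.9, 47.9 and 45.3 FPKM there. Its log2 fold change at 48 h was 0.01, beside 1.17 in the empty vector line.

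In glycan synthesis, GALNT1, an enzyme that starts O-glycans, fell in AML1-ETO cells from 19.5 to 7.50 FPKM (log2 fold change -1.38). ST3GAL6, a sialyltransferase of the ST3GAL family, rose in the empty vector line from 2.90 to 9.13 FPKM and in ETO2-GLIS2 cells from 4.01 to 9.82 FPKM. In AML1-ETO cells it had 2.49, 8.35 and 4.87 FPKM and was past 2-fold higher at 12 h, with a log2 fold change of 0.96 at 48 h. Among the supply enzymes, CHST2, a sulfotransferase, fell in AML1-ETO cells from 7.35 to 1.73 FPKM (-2.08), beside -0.85 in the empty vector line. GNE, the first enzyme of sialic acid synthesis, fell with ETO2-GLIS2 (-1.48) and with the empty vector (-1.15), and TPST1, a tyrosine sulfotransferase, likewise (-1.28 and -1.07). These changes of GNE, TPST1 and ST3GAL6 were thus present without a fusion protein. GNE and TPST1 did not pass 2-fold in AML1-ETO cells. There GNE had 12.1, 8.89 and 12.7 FPKM (log2 fold change 0.07 at 48 h). TPST1 had 5.93, 3.60 and 4.17 FPKM (-0.51). TPST2, the other tyrosine sulfotransferase, rose in ETO2-GLIS2 cells from 4.35 to 8.84 FPKM.

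Of the sialomucins, PODXL, which encodes podocalyxin, fell in all 3 lines, from 14.5 to 1.14 FPKM in AML1-ETO cells (-3.66), from 9.73 to 4.82 FPKM with ETO2-GLIS2 (-1.01, a call that ends at -0.997 with a pseudocount of 0.1 FPKM) and from 17.6 to 7.16 FPKM with the empty vector (-1.29). CD164, which encodes endolyn, rose in AML1-ETO cells (1.07) and had 0.89 in the empty vector line. In the immunoglobulin family ALCAM fell in AML1-ETO cells from 9.48 to 1.18 FPKM and ICAM3 from 5.23 to 2.26 FPKM, while ICAM5 rose in both fusion lines (1.81 and 1.82), beside 0.99 in the empty vector line. F11R, which encodes the junctional molecule JAM-A, went from 5.43 to 16.5 FPKM with AML1-ETO and also rose with the empty vector (1.28). In the last list, SRGN, which encodes the granule proteoglycan serglycin, fell from 2192 to 214 FPKM in AML1-ETO cells and from 2092 to 598 FPKM in ETO2-GLIS2 cells. HYAL2, a hyaluronidase, and ADAM17, a sheddase, rose in AML1-ETO cells (1.48 and 1.46).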

How the data were processed

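RNA of U937 lines was sequenced as 9 libraries. Per the submitters' notes and methods, reads were aligned to hg38 with HISAT2 2.0.5, handled with SAMtools 1.7 and counted on genes with HTSeq 0.9.1, and the authors deposited FPKM for every gene. HTSeq ran with default parameters, which count reads on the gene's own strand, while the library kit (TruSeq RNA v2) does not mark strand, so part of a gene's reads may be uncounted and reads of an antisense partner may be counted for it. The annotation version is not given in the sources used here. FPKM is relative to all reads on genes, so a few very abundant transcripts shift all others.

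Reads were recovered from the FPKM steps, whole for 23888 of 23889 genes above 0 in at least 3 libraries (tolerance 0.02 to 0.15 reads), with Python 3.11.15, numpy 2.4.6, pandas 2.3.3, scipy 1.17.1 and matplotlib 3.10.9, and the method was tested on simulated data. Reads served for counting intervals and the floor of 3 reads. Without molecular identifiers PCR copies count as reads, so intervals and floors cover counting error only. Fold changes used log2(FPKM + 0.01) over all genes with a mean of at least 1 FPKM. Intervals of a fusion line less the empty vector line combine both intervals.

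The members and gene lists were chosen with earlier results of these data known. Beyond the 9 members, genes were named by rule: the construct genes, up to 4 genes past 2-fold with the largest change per list and line, and the 5 genes nearest to SELPLG. Some list genes are not reported here by name but stay in the counts. One list gene, FUK, was matched to FCSK through RefSeq synonyms. Positions and promoters are RefSeq GRCh38.p14, and exon overlaps come from GENCODE v44lift37, whose coordinates were not used. Pseudocount, filter, scaling, threshold and reference were varied.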

Additional observations from a re-analysis of the deposited data

Results flagged for a closer look

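SPN and ST3GAL4 stood out because AML1-ETO and ETO2-GLIS2 cells moved in opposite directions at 12 h and at 48 h, with counting intervals apart from 0. With the empty vector line at the same time as reference this did not hold at 12 h, where ETO2-GLIS2 cells had -0.17 for SPN and -0.0045 for ST3GAL4. By 48 h the AML1-ETO value less the ETO2-GLIS2 value came to -2.36 for SPN and -0.71 for ST3GAL4 on the log2 scale, a gap that was not tested because no condition has a second library. SPN at 12 h had log2 fold changes of -0.42 with AML1-ETO and 0.39 with ETO2-GLIS2, and ST3GAL4 of -0.30 and 0.33. The empty vector line had positive values for both genes at both times as well, 0.35 and 0.56 for SPN and 0.27 and 0.08 for ST3GAL4, of which the value of ST3GAL4 at 48 h turned to -0.05 after rescaling by the median ratio.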

How the results depend on the processing

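How much cultures of a line vary is unknown here, as no condition was repeated, and a fold change of a gene near 0 reads depends on the pseudocount. In AML1-ETO cells at 48 h, SELPLG and FUT7 had log2 fold changes of -8.65 and -8.74, which became -4.64 and -2.40 with a pseudocount of 1 FPKM. The 4 homing genes past 2-fold in AML1-ETO cells at 48 h stayed within 1.5 times that count under every alternative. The count of 2 at 12 h became 1 at a mean FPKM of at least 5. In ETO2-GLIS2 cells the count of 1 at 48 h became 2 after rescaling by the median ratio and 6 with a 1.5-fold threshold, and the count of 0 at 12 h became 1 with a 1.5-fold threshold and 1 against the empty vector line at the same time. Of the genes in the lists, the 17 past 2-fold in AML1-ETO cells became 28 without a filter and 26 with a 1.5-fold threshold. The 7 in ETO2-GLIS2 cells became 16 and 20. The 7 in the empty vector line became 13 and 21, and 4 with a pseudocount of 1 FPKM and 4 at a mean FPKM of at least 5. Rescaling shifted log2 fold changes by up to 0.15 and turned the sign of SELPLG, CD44 and ST3GAL4 in the empty vector line at 48 h. With the empty vector line at the same time as reference, 12 of 36 values changed sign, all of them short of 2-fold. At a mean of at least 10 FPKM, 2 of the 5 genes nearest to SELPLG, LAT2 and MS4A3, remained, and 0 remained with a pseudocount of 1 FPKM or without the AML1-ETO library at 48 h, alternatives chosen after seeing the data. No paired analysis was possible because each condition has 1 library.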
